A study of Mus musculus with 23 samples.

Results

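Fibroblast growth factors (FGFs) are secreted proteins that activate receptor tyrosine kinases at the cell surface, and heparan sulphate chains hold ligand and receptor together. In the mammary gland, FGF signals from the stroma to the epithelium are known to be needed for the embryonic buds and for the growth and branching of the ducts. The activated receptors signal through the RAS-ERK cascade, and Sprouty proteins, whose genes are switched on by that cascade, hold the signal back.

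The 10 genes described here are the receptors Fgfr1, Fgfr2 and Fgfr3, the ligands Fgf1, Fgf2, Fgf7 and Fgf10, and the feedback inhibitors Spry1, Spry2 and Spry4. They were found as the probe sets that list one of these genes as their single symbol in the annotation of the array, which gave 22 of the 45101 probe sets. Where a gene had several, the brightest on average was used, and the others were set beside it. Genes entered the tests if 2 or more arrays read them above percentile 40 of all values on that array. Of the 10 genes, 8 passed this filter, among 15378 of 18193 genes in all, while Fgf2 and Fgf10 did not.

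Expression was measured on 23 Affymetrix arrays of mRNA from epithelial cells purified from mammary glands of C57BL/6 females, an inbred mouse strain. The labels give 3 cell types, namely mature luminal cells, luminal progenitors and stem cells. The stages were 3-week virgins, 9-week virgins, pregnancy at day 10, day 16 and day 19, and retired breeders, whose parity and age both set them apart from virgins. There were 2 arrays for every cell type of 9-week virgins, for luminal progenitors and stem cells at 3 weeks, and for mature luminal and stem cells at day 10. The other 9 of the 16 groups had 1 array, and at day 19 there was an array of mature luminal cells alone. No group carries a transgene or a treatment in the labels, which name neither the surface markers used for the purification nor the number of animals behind an array. The p-values rest on the spread between arrays, part of which may be technical. In a preparation of many cells fewer cells of a type and less RNA per cell cannot be told apart.

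The luminal keratin Krt18 lay between 12.19 and 14.06 on all arrays (log2 values), stem cell arrays included. The basal keratin Krt5 lay between 10.27 and 12.39 on the stem cell arrays, but it reached 11.17 and 11.81 on 2 mature luminal arrays and 10.53 on a luminal progenitor array. Of 11 basal markers, 9 were lower and 0 higher in mature luminal than in stem cells. Of 8 luminal markers, 2 were higher and 0 lower in mature luminal than in stem cells (8 higher with the replicate block described below). The mean of 10 fibroblast markers was 3.78 to 7.14 in mature luminal and 7.18 to 8.79 in stem cell preparations. In luminal progenitors it was at least 9.72 in pregnancy and 6.34 to 9.09 outside it. Gapdh signal from the 3′ end exceeded that from the 5′ end most on the 3-week mature luminal array (by 5.16 log2 units) and the retired breeder stem array (by 3.77), a sign usually read as RNA degradation. A fit without both of these arrays was among the alternatives run, and the part of degradation itself was not tested. Array titles carry a replicate number, and arrays with the same number deviated together. A fit with that number as a block, which sets replicate 1 against all other arrays, unnumbered ones included, passes more genes in most comparisons. It is given for the members wherever it changed a call, with its own share of all genes passed, and for the other genes of the pathway mostly as counts.

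Fgfr2, the receptor for the stromal ligands Fgf7 and Fgf10 in its epithelial form, fell in pregnancy on average over the cell types and within both luminal types. In mature luminal cells its log2 value was 9.25 and 9.41 on day 10, 5.26 on day 16 and 6.89 on day 19, against 11.98 and 12.76 in 9-week virgins. The 3-week virgin and retired breeder mature luminal arrays had 10.57 and 12.74. All 4 pregnant mature luminal arrays lay below all 4 others, as 8.26% of all genes did, and 13.4% lay below the 9-week arrays. In luminal progenitors it was 7.19 on day 10 and 9.88 on day 16, against 12.11 and 11.45 in 9-week virgins, 12.50 and 12.45 in 3-week virgins and 11.50 in the retired breeder. Here too the pregnant arrays lay below all the others, as did 9.61% of genes, with 16.2% below the 9-week arrays. In both luminal types at once 2.35% of genes lay below all the others and 4.74% below the 9-week arrays. The mean of 9 leukocyte markers was 9.24 and 8.61 on the day 10 and day 16 luminal progenitor arrays, against 4.47 to 7.45 on the others, and that of 11 basal markers was 9.42 and 10.55, against 6.99 to 8.99. The mean of 8 luminal markers was 11.56 and 11.60 on these pregnant arrays, against 11.84 to 12.32 on the others. None of the leukocyte, basal or luminal markers was at 0 on any array, and their part in the Fgfr2 values was not tested. In stem cells the groups overlapped, with 10.73 and 11.15 on day 10 and 11.32 on day 16, against 10.99 and 12.53 in 9-week virgins, 10.90 and 10.02 in 3-week virgins and 11.41 in the retired breeder.

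The promoter of Fgfr2 is printed because Fgfr2 is the member with the largest difference in pregnancy. RefSeq places this window, 250 bases before to 50 after a listed start, at chr7:130266759-130267058 on the minus strand (GRCm38.p6), and it is read here 5′ to 3′ along the gene.
Fgfr2: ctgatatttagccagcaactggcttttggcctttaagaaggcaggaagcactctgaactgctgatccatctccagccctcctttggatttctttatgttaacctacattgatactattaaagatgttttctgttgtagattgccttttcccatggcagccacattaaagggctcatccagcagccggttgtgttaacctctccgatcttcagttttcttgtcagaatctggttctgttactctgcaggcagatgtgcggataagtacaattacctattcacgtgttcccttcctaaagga
No letter is in capitals because none of 3 motifs searched on both strands occurs in it. They were TTCNNNGAA, bound by STAT factors, GCCNNNGGC, bound by AP-2 factors, and CCGGAA, bound by ETS factors, and they occur in 8.3%, 16.6% and 14.9% of 32851 windows of that length. The window holds 4 CpG dinucleotides, against a median of 7 over those windows. The arrays do not show which start of the gene was used.

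**Figure D1:**
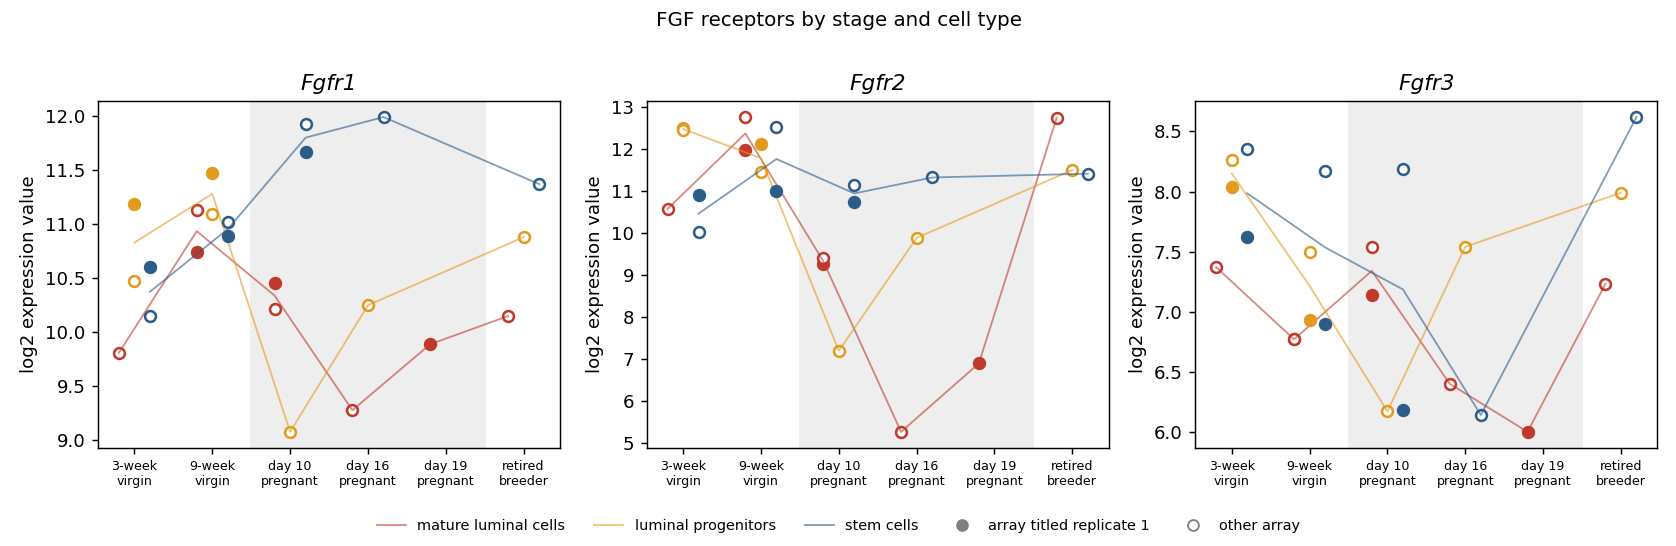
Log2 expression values of Fgfr1, Fgfr2 and Fgfr3 (vertical axes, scales differ) on each of 23 arrays by stage and cell type; lines join group means, filled points are arrays titled replicate 1, and grey marks pregnancy. Fgfr2 in pregnant mature luminal cells spans 5.26 to 9.41, below every mature luminal array outside pregnancy.

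Averaged over the 3 cell types, Fgfr2 was 8.99 in pregnancy (mean of days 10 and 16) and 11.97 in 9-week virgins, a difference of −2.98 ± 0.29 (standard error, log2; 7.91-fold lower), with an adjusted p of 0.00017 by limma with Benjamini-Hochberg adjustment over all genes. It was the one member that passed in this comparison, in which 7.13% of all genes passed, and it stood at place 25 of 15378 by p. Leaving out any 1 array in turn, it passed in 14 of 14 fits, with differences from −3.43 to −2.31. In the fit with the replicate block Spry4 passed as well, at −0.98 with an adjusted p of 0.016, against −0.61 and 0.39 without the block. With the block, however, 15.6% of all genes passed. The other Spry4 probe sets with signal stood at −0.08 and +0.23 without the block. Tested on their own they did not pass with it either (limma adjusted p = 0.13 and 0.88), so the call rests on the leading probe set.

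Within mature luminal cells Fgfr2 averaged 7.30 in pregnancy and 12.37 in 9-week virgins. The difference was −5.08 ± 0.48 (33.7-fold lower, limma adjusted p = 0.00045, n = 3 pregnant and 2 virgin arrays in a model over all arrays), where 2.25% of genes passed. It passed in 5 of 5 fits that left out 1 array, and it was smallest, −3.04, without the day 16 array. Within luminal progenitors the means were 8.54 in pregnancy and 11.78 in 9-week virgins, and the difference was −3.25 ± 0.52 (9.48-fold lower, limma adjusted p = 0.040), where 0.156% of genes passed. This call held in 1 of 4 fits that left out 1 array, the one without day 16 (−4.59). Without day 10 the difference was −1.90, and without either 9-week array it was −3.57 or −2.92. The call was also lost when each probe set was tested on its own (adjusted p = 0.065). In stem cells the means were 11.13 in pregnancy and 11.76 in 9-week virgins, and the difference was −0.63 ± 0.48 (limma adjusted p = 0.64). No member passed there, where 0.26% of genes did.

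Whether pregnancy moved Fgfr2 differently in the cell types was tested directly. The pregnancy difference in mature luminal cells minus that in stem cells was −4.45 ± 0.68 (limma adjusted p = 0.079), which did not pass without the replicate block and did with it (adjusted p = 0.012). For luminal progenitors minus stem cells it was −2.62 ± 0.71 (adjusted p = 0.39, and 0.12 with the block). Over all genes 0.013% and 0.0065% passed these tests without the block, and 0.735% and 0.416% with it.

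The 2 probe sets of Fgfr2 with signal had a Pearson correlation of 0.91 over the arrays. On the second, mature luminal cells read 5.42 and 5.61 on day 10, 3.83 on day 16 and 4.37 on day 19, against 8.10 and 8.89 in 9-week virgins, and it passed when probe sets were tested on their own (−3.82, adjusted p = 0.029). Another lay between 0.47 and 4.33 and above the median of its array on 0 of 23. Within pregnancy, mature luminal Fgfr2 averaged 6.08 over days 16 and 19 and 9.33 on day 10. That difference of −3.25 ± 0.52 did not pass without the block (limma adjusted p = 0.068) and passed with it (0.0080). Of all genes 0.026% passed without the block and 0.975% with it. On the second probe set the same difference was −1.415 ± 0.77 and passed in neither fit (limma adjusted p = 0.59 with the block).

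Markers of mature luminal cells differed in pregnancy as well. The mean of the 5 measured markers of that list (Esr1, Pgr, Foxa1, Cited1 and Tnfsf11) ran from 4.99 to 9.15 on pregnant and from 9.16 to 11.13 on other mature luminal arrays. In those cells Esr1, the oestrogen receptor, fell by 3.13 (limma adjusted p = 0.0080), Pgr, the progesterone receptor, by 5.14 (0.011), and the pioneer factor Foxa1 by 3.03 (0.0055). Cited1, a cofactor of oestrogen receptor action, fell by 4.52 (0.021), while Tnfsf11, the ligand RANKL, stood at +2.66 (0.50). In stem cells, where Fgfr2 did not pass, Esr1 stood at −2.76 (adjusted p = 0.051, and 0.0070 with the block) and Foxa1 at −2.64 (0.046). There Pgr stood at −2.48 (0.31), Cited1 at −3.215 (0.20) and Tnfsf11 at +1.11 (0.80). In luminal progenitors, where Fgfr2 passed, none of the 5 did without the block. Esr1 stood at −1.24 (0.35), Pgr at −3.41 (0.17), Foxa1 at −2.19 (0.11, and 0.046 with the block), Cited1 at −3.56 (0.15) and Tnfsf11 at +4.445 (0.24). Over the 23 arrays the mean of the list and Fgfr2 correlated at 0.72, a description over arrays that share stages and cell types. The part of these markers in the Fgfr2 result was not tested.

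**Figure D2:**
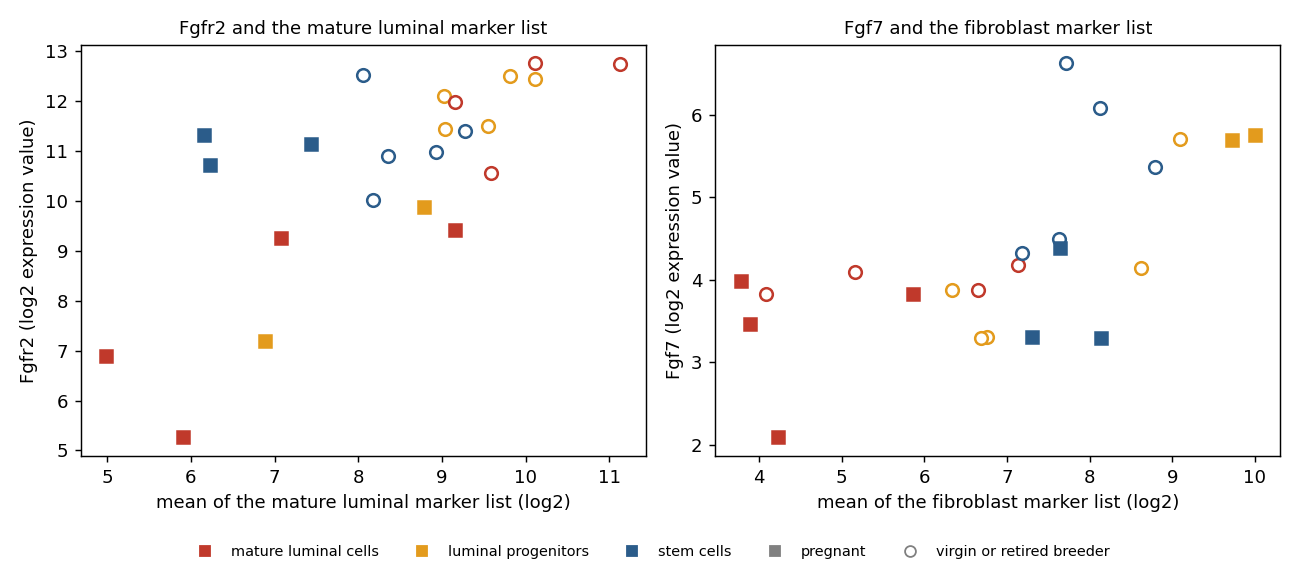
Left, Fgfr2 against the mean of the 5 mature luminal markers; right, Fgf7 against the mean of the 10 fibroblast markers (all log2 values), 1 point per array, with colours for cell types and filled squares for pregnancy. Pregnant stem cell arrays combine a low mature luminal mean (6.16 to 7.44) with Fgfr2 values between 10.73 and 11.32.

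Fgfr1, a receptor used by both epithelium and stroma, lay on opposite sides of 9-week virgins in stem and luminal cells during pregnancy, without passing the test in any single cell type. In stem cells it was 11.67 and 11.93 on day 10 and 11.99 on day 16, against 10.89 and 11.02 in 9-week virgins. The 3-week virgins had 10.60 and 10.15 and the retired breeder 11.37, so all pregnant stem arrays lay above all others, as 6.06% of all genes did, and 14.7% lay above the 9-week arrays. The mean of 10 endothelial markers was 6.05 to 6.77 on these pregnant stem arrays, against 8.36 to 11.31 on the others. It too separated them without overlap, and its part in the Fgfr1 values was not tested. In mature luminal cells it was 10.46 and 10.22 on day 10, 9.28 on day 16 and 9.89 on day 19, against 10.74 and 11.13 in 9-week virgins, 9.81 in the 3-week virgin and 10.15 in the retired breeder. In luminal progenitors it was 9.08 on day 10 and 10.25 on day 16, against 11.47 and 11.09 in 9-week virgins, 11.19 and 10.47 in 3-week virgins and 10.88 in the retired breeder. Every pregnant luminal array thus lay below the 9-week arrays of its cell type. Of all genes, 0.117% had every pregnant array above the 9-week arrays in stem cells and below them in both luminal types. On the pregnant luminal progenitor arrays the luminal marker mean was lower than on the others of that type. The fibroblast, leukocyte and basal means were higher there, at the values given above. The part of these markers in the Fgfr1 values was not tested.

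The pregnancy differences of Fgfr1 were −1.12 ± 0.34 in mature luminal cells (limma adjusted p = 0.12, and 0.048 with the block), −1.61 ± 0.36 in luminal progenitors (0.11, and 0.045 with the block) and +0.94 ± 0.34 in stem cells (0.31, and 0.11 with the block). With the block 7.23%, 1.26% and 2.2% of all genes passed in these 3 comparisons. The difference of differences was −2.06 ± 0.48 for mature luminal minus stem cells (adjusted p = 0.27, and 0.047 with the block). It was −2.56 ± 0.49 for luminal progenitors minus stem cells (0.19, and 0.038 with the block). The other probe sets of Fgfr1 stood at +0.85 and −0.50 in stem cells, so the probe sets disagreed there, while both stood below 0 in the luminal types (−2.60 to −1.07).

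Between the cell types, Fgfr1 and Fgfr2 were lower in mature luminal than in stem cells on average over the 5 stages that have all 3 types, a comparison in which 8.34% of genes passed. Fgfr1 averaged 10.10 in mature luminal and 11.30 in stem cells (−1.19 ± 0.20, limma adjusted p = 0.0030). It passed in 14 of 15 fits that left out 1 array, the exception being the day 16 stem array (−0.82, adjusted p = 0.052). Fgfr2 averaged 10.05 in mature luminal and 11.18 in stem cells (−1.12 ± 0.28, adjusted p = 0.030) and passed in 9 of 15 such fits. The Fgfr2 average joined stages of opposite sign, since the difference was −6.06 on day 16 and −1.61 on day 10, but +0.11, +0.61 and +1.33 in 3-week virgins, 9-week virgins and retired breeders. Without the day 16 array of either cell type it was +0.11. When probe sets were tested on their own, the second of Fgfr2 stood at −0.997 (limma adjusted p = 0.24). The others of Fgfr1 stood at −1.116 (0.33, and 0.040 with the block) and −1.075 (0.23), so none of these passed without the block.

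Split after seeing these values, the difference on days 10 and 16 was −3.83 for Fgfr2 (limma adjusted p = 0.0011) and −2.09 for Fgfr1 (0.0026), where 5.19% of genes passed. Over the stages outside pregnancy it was +0.68 for Fgfr2 (0.41) and −0.60 for Fgfr1 (0.28), where 1.72% of genes passed. The adjusted p-values of this split, those for luminal progenitors below included, do not allow for its choice from the same values. They serve as description only. Over the 5 stages Fgfr1 averaged 10.46 in luminal progenitors and 11.30 in stem cells (−0.83 ± 0.20, limma adjusted p = 0.036), where 4.38% of genes passed and Fgfr1 was the one member that did. The call held in 5 of 15 fits that left out 1 array. Without the day 10 and day 16 luminal progenitor arrays the difference was +0.10, and among arrays titled replicate 1 it was +0.58. Over days 10 and 16 alone the luminal progenitor minus stem difference was −2.23 for Fgfr1 and −2.60 for Fgfr2 (adjusted p = 0.094 each, and 0.012 and 0.014 with the block), where 0% of genes passed without it and 4.23% with it, and over the other stages, where 3.3% passed, it was +0.10 and +0.71.

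Fgfr3, the third receptor, passed in no comparison. It ran from 6.00 to 7.54 (median 6.96) in mature luminal cells, from 6.17 to 8.26 (7.54) in luminal progenitors and from 6.14 to 8.62 (7.89) in stem cells. The 2 stem arrays of day 10, at 6.18 and 8.19, differed by 2.01. Its largest pregnancy difference was −0.87 ± 0.66 in stem cells (limma adjusted p = 0.64).

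**Figure D3:**
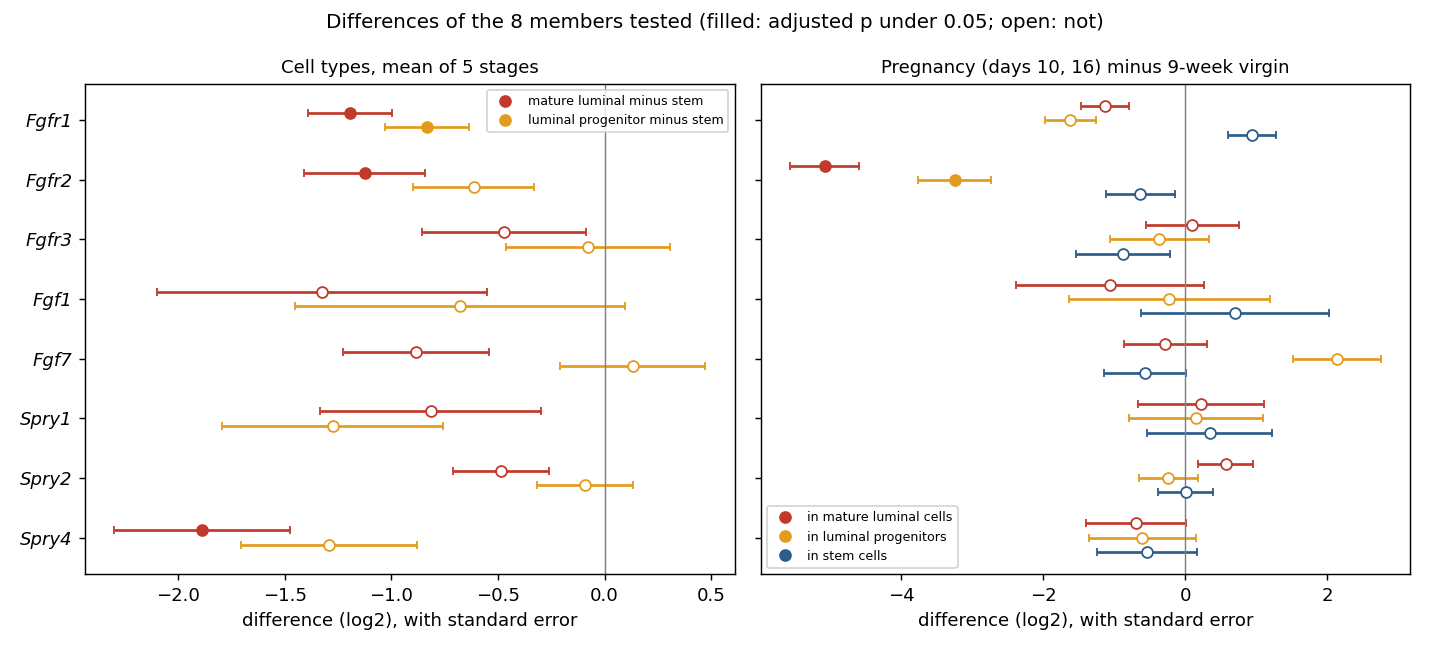
Differences (log2, with standard errors) of the 8 members tested, left between cell types over 5 stages and right between pregnancy and 9-week virgins within each cell type; filled points passed at an adjusted p under 0.05. Fgfr2 in mature luminal cells lies farthest from 0, at −5.08.

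Of the ligands, Fgf10 and Fgf2 gave little signal in these preparations, Fgf7 was above the median of its array on 6 of 23 arrays and Fgf1 on 23. Fgf10, which the mammary stroma makes, was at 0 on 7 arrays and never above 2.93, and on no array was it above the median of that array. Its highest values were 2.93 in luminal progenitors of day 10 and 2.76 in stem cells of day 16, while the 4 pregnant mature luminal arrays were all at 0. Fgf2, a ligand held in the matrix, lay between 0.29 and 4.08 and was likewise above the median on no array. At these low values it was lower on the array titled replicate 1 in 7 of 7 groups, and the share of all genes that did so was not computed. Neither was tested.

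Fgf7, keratinocyte growth factor, is made by fibroblasts and acts on epithelial Fgfr2. In luminal progenitors it was 5.69 on day 10 and 5.75 on day 16, against 3.88 and 3.29 in 9-week virgins, 3.31 and 4.14 in 3-week virgins and 5.71 in the retired breeder. The pregnant arrays lay above the 9-week and 3-week virgin ones and beside the retired breeder. How many of all genes did so was not computed, so how unusual this is cannot be said. The difference from 9-week virgins was +2.14 ± 0.62 (limma adjusted p = 0.20), which did not pass. In stem cells Fgf7 was 3.31 and 3.29 on day 10 and 4.38 on day 16, against 4.49 and 4.32 in 9-week virgins, and its highest values were 6.08 and 6.62, in 3-week virgins. In mature luminal cells it ran from 2.09 on day 19 to 4.18.

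In luminal progenitors, fibroblast markers were high where Fgf7 was. The mean of the 10 fibroblast markers was at least 9.72 on the pregnant luminal progenitor arrays and 9.09 on the retired breeder one, against 6.34 to 8.62 on the 4 virgin ones. On the 3-week stem cell arrays, where Fgf7 was highest, that mean was lower, at 8.13 and 7.72. The endothelial mean was 11.03 and 11.31 there. Fgf7 correlated at 0.65 with that mean and at 0.70 with the means of the endothelial and of the pericyte markers over the 23 arrays. None of the 10 fibroblast markers was at 0 on any array. The part of these cells in the Fgf7 values was not tested.

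Fgf1, a ligand that binds all FGF receptors, differed between arrays of different replicate number. Within the groups of 2 arrays it was lower on the array titled replicate 1 in 7 of 7 groups, with differences from −5.05 to −0.17, as in stem cells of 9-week virgins (6.29 and 11.34) and of day 10 (6.44 and 9.97). Both its other probe sets were lower there in 7 of 7 groups as well. The day 19 mature luminal array, also titled replicate 1 but with no partner, was not low: it read 10.74, the third highest value of Fgf1. A term for the replicate number stood at −1.84 (limma adjusted p = 0.016), a test that 31.7% of all genes passed. What the number marks is not given in the labels. Fgf1 passed in no comparison of stage or cell type, and the spread between arrays of a group was 1.75 (pooled SD, 7 groups of 2).

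**Figure D4:**
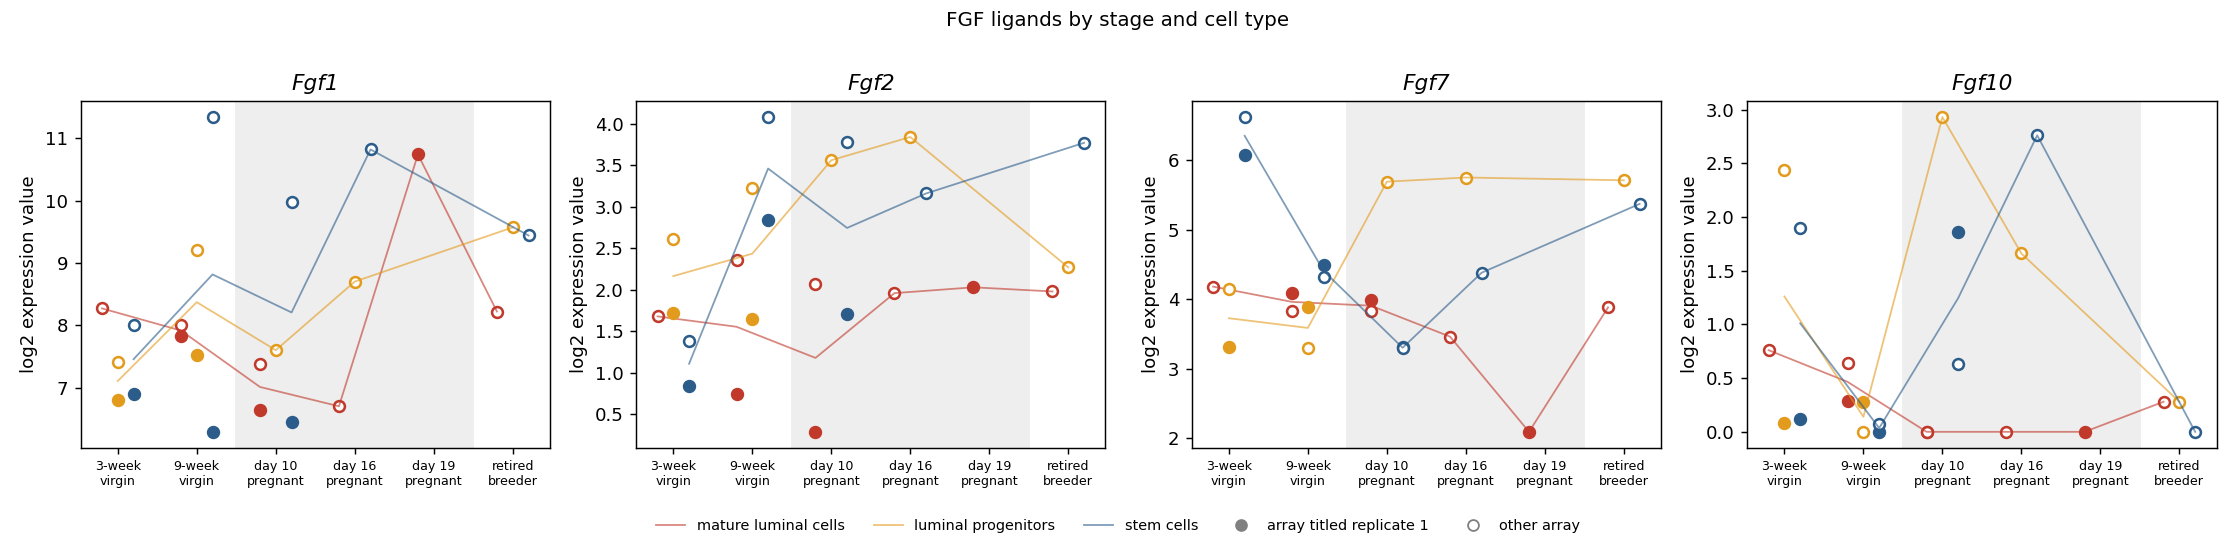
Log2 expression values of the ligands Fgf1, Fgf2, Fgf7 and Fgf10 by stage and cell type on 23 arrays (vertical axes, scales differ), drawn as for the receptors. Fgf2 and Fgf10 stay at or below 4.08, and Fgf7 is highest in stem cells of 3-week virgins.

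Spry4, a feedback inhibitor of receptor tyrosine kinase signalling, was lower in mature luminal than in stem cells. In mature luminal cells it was 8.66 in the 3-week virgin, 6.66 and 7.32 in 9-week virgins, 5.98 and 7.46 on day 10, 5.89 on day 16, 6.02 on day 19 and 8.11 in the retired breeder. In stem cells it was 9.03 and 10.25 in 3-week virgins, 8.80 and 9.50 in 9-week virgins, 7.56 and 8.76 on day 10, 9.06 on day 16 and 9.79 in the retired breeder. At each of the 5 shared stages every mature luminal array lay below every stem array. The share of all genes that did so was not computed, so how unusual this is cannot be said. The means were 7.27 in mature luminal and 9.16 in stem cells (−1.89 ± 0.41, 3.70-fold lower, limma adjusted p = 0.015), and the call held in 13 of 15 fits that left out 1 array. Without the day 16 array of either cell type it was −1.56 (adjusted p = 0.070 without the stem array and 0.069 without the mature luminal one).

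In luminal progenitors Spry4 was 7.04 and 8.23 in 3-week virgins, 7.40 and 8.66 in 9-week virgins, 6.83 on day 10, 8.02 on day 16 and 8.82 in the retired breeder. Its mean was 7.87 in luminal progenitors and 9.16 in stem cells, a difference of −1.29 ± 0.41 that did not pass without the block (limma adjusted p = 0.11) and did with it (0.0017), where 14.4% of all genes passed. The other probe sets of Spry4 with signal stood at −1.95 and −1.69 for mature luminal minus stem cells. When probe sets were tested on their own, limma gave them an adjusted p of 0.089 and 0.023. Like Fgf1, Spry4 was lower on replicate 1 in 7 of 7 groups, with a replicate term of −1.10 (limma adjusted p = 0.0029). Over the arrays it correlated at 0.85 with the mean of 6 pericyte markers, at 0.72 with that of 10 endothelial markers and at −0.76 with that of 8 luminal markers. Endothelial means were 4.76 to 8.03 in mature luminal and 6.05 to 11.31 in stem cell preparations, and pericyte means 4.62 to 8.49 in mature luminal and 6.64 to 9.38 in stem cell preparations. Their part in the Spry4 difference was not tested.

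Spry1 and Spry2, the other inhibitors of the family, passed in no comparison. Spry1 ran from 5.94 to 8.62 (median 7.47) in mature luminal cells, from 5.50 to 8.38 (6.99) in luminal progenitors and from 7.72 to 9.11 (8.10) in stem cells. Its luminal progenitor minus stem difference was −1.27 ± 0.52 (limma adjusted p = 0.21), with a pooled SD of 1.08 between arrays of a group. Spry2 was the most even of the 3, between 10.97 and 12.69 on all arrays, with a median of 11.86 in mature luminal cells, 11.91 in luminal progenitors and 12.25 in stem cells.

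**Figure D5:**
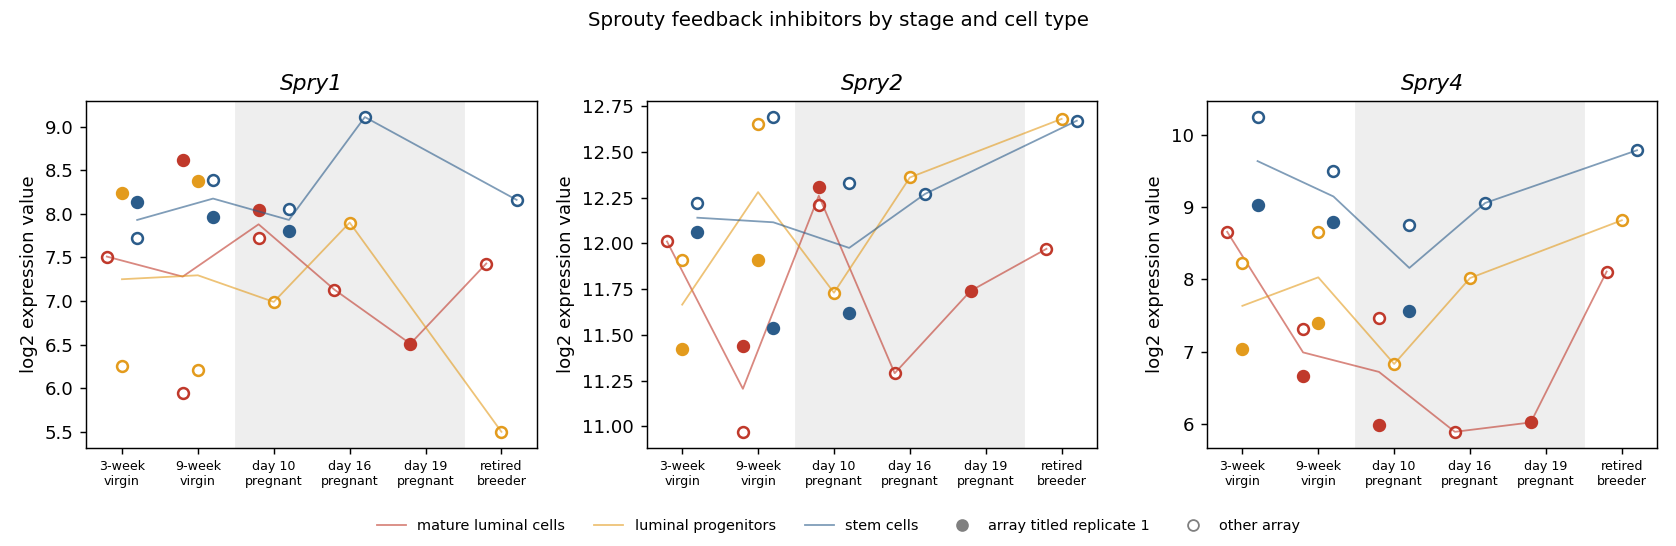
Log2 expression values of Spry1, Spry2 and Spry4 by stage and cell type on 23 arrays (vertical axes, scales differ), drawn as for the receptors. At every shared stage the mature luminal Spry4 values lie below the stem cell values, and the share of all genes that do so was not computed.

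No member passed between mature luminal cells and luminal progenitors (0.124% of genes did), between 3-week and 9-week virgins (0.176%), between day 16 and day 10 over the 3 cell types (0%, with 212 genes at an unadjusted p under 0.05) or between retired breeders and 9-week virgins (0.0065%). In the last of these Fgfr2 averaged 11.88 in retired breeders and 11.97 in 9-week virgins (−0.09 ± 0.37, limma adjusted p = 0.95). In each of the 3 cell types the retired breeder array lay within the range of the 9-week arrays.

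Ordered over the 16 groups, Fgfr2 was highest in mature luminal cells of retired breeders (12.74) and lowest in those of day 16 (5.26). Of its 15 steps between neighbouring groups, 4 exceeded the pooled SD of 0.56, among them 9.33 in mature luminal cells of day 10 to 7.19 in luminal progenitors of day 10, and 6.89 to 5.26 at the bottom. Fgfr1 was highest in stem cells of day 16 (11.99) and lowest in luminal progenitors of day 10 (9.08), with 4 of 15 steps above its pooled SD of 0.29. For Fgf7 3 steps did so and for Fgf10 1, and for Fgfr3, Fgf1, Fgf2 and the 3 Sprouty genes none did, so neighbouring groups of these did not differ beyond their spread.

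Over the 23 arrays the genes with the profile most like Fgfr2 were Fgg, C130021I20Rik and Ptn, at Pearson correlations of 0.94, 0.94 and 0.93. For Fgfr1 they were Numbl, Epha2 and Bmp1 (0.85, 0.84 and 0.83), and for Spry4 Kitl, Pdzd8 and Soga1 (0.94, 0.92 and 0.91). Spry2 was nearest to Trpc1 (0.92), Fgf7 to Hoxa10 (0.87), Fgfr3 to Kpnb1 (0.86), Fgf1 to Dcun1d3 (0.86) and Spry1 to Ptprs (0.78). Among the members, Fgfr1 and Fgfr2 correlated at 0.67 and Fgfr3 and Spry4 at 0.63. Arrays of shared stage, cell type and replicate number underlie all of these values.

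Other genes of the pathway that passed between cell types were lower in the luminal types. Over all genes, 1043 were lower and 240 higher in mature luminal than in stem cells, and 553 were lower and 120 higher in luminal progenitors. With the block 19.7% and 14.4% of all genes passed these 2 comparisons. Of 9 other receptors and co-receptors, 3 were lower and 0 higher in mature luminal than in stem cells, and 2 were lower in luminal progenitors, with list medians of −0.82 and −0.51, against medians of +0.03 and −0.04 over all genes. Fgfr4, the fourth receptor, stood at −2.46 in mature luminal cells (limma adjusted p = 0.0050) and at −2.41 in luminal progenitors (0.013). These averages join unlike stages. On pregnant arrays Fgfr4 was 7.24 to 8.79 in stem and 1.87 to 3.39 in mature luminal cells. Outside pregnancy these 2 types overlapped, at 3.28 to 5.34 and 1.84 to 5.17, and luminal progenitors had 1.06 to 3.07. Fgfrl1, a receptor without a kinase domain, stood at −1.76 in mature luminal cells (0.0031) and at −1.70 in luminal progenitors (0.011). Flrt2, a transmembrane protein of the family that binds FGF receptors, stood at −1.97 in mature luminal cells (0.029). With the block 4 of the list were lower and 1 higher in mature luminal cells, Fgfbp1, a carrier that releases FGFs from the matrix (+1.73, adjusted p = 0.025).

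Of 19 heparan sulphate proteoglycans and enzymes tested, 7 were lower and 0 higher in mature luminal than in stem cells (median −0.60), and 5 were lower in luminal progenitors (median −0.58). The sulfatase Sulf1, which trims heparan sulphate, stood at −3.44 in mature luminal cells (limma adjusted p = 0.00027). The sulfotransferase Hs6st2 stood at −4.11 (0.0015), the proteoglycan perlecan, Hspg2, at −2.99 (0.00078) and the glypican Gpc3 at −3.63 (0.00057). Between mature luminal cells and luminal progenitors Gpc3 stood at −2.93 (0.026). With the replicate block 10 were lower in mature luminal cells and 8 in luminal progenitors, and between the luminal types 3 were lower, where 0.995% of all genes passed. Of the 10 fibroblast markers 6, and of the 10 endothelial markers 7, were lower in mature luminal than in stem cells as well. In luminal progenitors 0 fibroblast markers (median +0.84) and 4 endothelial markers (median −1.42) were lower. The part of such cells was not tested.

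Of 11 other feedback inhibitors and ETS targets, 3 were lower and 0 higher in mature luminal than in stem cells (median −0.21). Etv5, an ETS factor known as a target of FGF signalling, ran from 5.26 to 7.19 on mature luminal arrays and from 7.87 to 10.53 on stem cell arrays. Its difference was −2.87 ± 0.29 (limma adjusted p = 0.00033), and it was −1.46 ± 0.29 in luminal progenitors (0.019). The inhibitors Spred1 and Spred2, relatives of the Sproutys, stood at −1.36 (0.0024) and −0.89 (0.049) in mature luminal minus stem cells. Dusp6, an ERK phosphatase, ran from 12.08 to 12.82 on mature luminal and from 12.45 to 13.30 on stem cell arrays and did not pass (0.24, and 0.041 with the block). With the block 1 of the list, Dusp4, was higher in mature luminal cells (+1.03, limma adjusted p = 0.015) and 4 were lower. In luminal progenitors 2 were lower with the block. Of 16 adaptors and members of the ERK cascade, Plcg1, phospholipase C gamma, was the one that passed (−1.03 in mature luminal cells, adjusted p = 0.018, and −1.03 in luminal progenitors, 0.031), and of 16 other ligands 0 did. With the block Sos1, an exchange factor of RAS, passed as well in mature luminal cells (−0.68, 0.032), Fgf17, another ligand, in luminal progenitors (−1.38, 0.045) and Etv5 between the luminal types (−1.41, 0.029).

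In pregnancy, 2 of the 9 receptors and co-receptors rose and 0 fell, over a list median of +0.43 against +0.10 for all genes, of which 580 rose and 516 fell (7.13% together). Fgfr4 rose by 2.61 ± 0.44 over the 3 cell types (limma adjusted p = 0.0058), where Fgfr2 fell by 2.98. It was 7.24 to 8.79 on the pregnant stem cell arrays, against 3.28 to 5.34 on the others, 4.39 and 5.68 on the pregnant luminal progenitor arrays, against 1.06 to 3.07 on the others, and 1.87 to 3.39 on the pregnant mature luminal arrays, against 1.84 to 5.17 on the others. The groups overlapped in mature luminal cells, and 2.43% of all genes had pregnant arrays above all others in both stem cells and luminal progenitors. The endothelial marker mean was lower on the same pregnant stem arrays and the leukocyte and basal means higher on the same pregnant luminal progenitor arrays, at the values given above, and their part in the Fgfr4 values was not tested. Flrt3, a relative of Flrt2, rose by 1.79 (0.011) and the sulfotransferase Hs6st1 by 0.79 (0.042).

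Of the 16 other ligands 1 fell and 0 rose, a share near that of all genes. Fgf13, an intracellular relative of the FGFs that does not act through the receptors, fell by 1.66 (limma adjusted p = 0.013). In mature luminal cells it was 2.78 to 5.22 in pregnancy, against 6.81 to 9.79 outside it, and fell by 3.94 (0.0044). Dusp5, another ERK phosphatase, fell by 0.74 (0.018), and Etv4, an ETS factor beside Etv5, stood at −1.64 without passing (0.072, and 0.019 with the block). Within luminal progenitors and within stem cells, 0 genes of the 5 lists passed, while with the block 1 did in luminal progenitors and 2 did in stem cells. With the block the comparison over the cell types had 2 higher and 2 lower heparan sulphate genes, 3 lower genes of the ERK list and 2 lower feedback genes. Within mature luminal cells it added Flrt3 (+2.18, adjusted p = 0.012), the epimerase Glce (−1.30, 0.030) and the kinase Map2k1 (−1.42, 0.0057) to Fgf13.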

How the data were processed

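The authors deposited a log2 expression value for 45101 probe sets on each array; the scale was read from the values, which run from 0 to 14.28, with medians per array between 4.51 and 5.47. Between 1.24% and 2.34% of probe sets were at 0 on an array. The summarising software, background correction and scaling are not given in the sources used here. Values were used as deposited. The platform annotation gave 34945 probe sets a single symbol, 932 several and 9160 none, and only the first kind was named.

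With limma 3.58.1 (R 4.3.3), each group received its own mean in 1 model over the 23 arrays, using eBayes with an intensity trend (7 residual and 4.74 prior degrees of freedom). The spread of groups with a single array was taken from the others. Two-sided p-values were adjusted by Benjamini-Hochberg over the 15378 genes kept, and 0.05 was the threshold. Cell types were averaged over 5 stages with equal weight, and stages over 3 cell types. Pregnancy means days 10 and 16 unless day 19 is named. The fitting code was tested on simulated data. The members and gene lists were chosen with earlier results of these data known. Named genes were the members, their 3 nearest genes by Pearson correlation and up to 6 passing genes per list. Esr1, Pgr, Foxa1, Cited1, Tnfsf11, Dusp6, Etv4 and some of the genes that passed with the block alone were named beside them after their values were seen.

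Deviations of the 7 groups with 2 arrays correlated between groups in 21 of 21 pairs (0.303 to 0.682, median 0.470). The replicate number in the titles was therefore used as a block in an alternative fit. The block set arrays titled replicate 1 against all others, so the 8 arrays without a number were counted with replicate 2. The labels do not say that they belong there, and calls that needed the block rest on this choice. Alternatives were quantile normalization, other probe set rules, filters and spread models, arrays left out, and stages split. No array was a copy of another (98.5% or more of probe sets differed). The number of arrays limits the precision.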

Additional observations from a re-analysis of the deposited data

Results flagged for a closer look

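The pregnancy difference of Fgfr2 in mature luminal cells minus that in stem cells was −4.445 ± 0.68 (limma adjusted p = 0.079 without and 0.012 with the replicate block). It drew attention as a difference between cell types under the same contrast.

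For Fgfr1 the same contrast was −2.065 ± 0.48 for mature luminal minus stem cells (0.27 without and 0.047 with the block) and −2.555 ± 0.49 for luminal progenitors minus stem cells (0.19 and 0.038). It drew attention because every pregnant stem array lay above, and every pregnant luminal array below, the 9-week arrays of its cell type.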

How the results depend on the processing

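The replicate block over all arrays raised the number of members that passed from 1 to 2 in luminal progenitors against stem cells and in pregnancy (over all cell types, in luminal progenitors and in mature luminal cells), from 0 to 2 in the interaction of mature luminal and stem cells, and from 0 to 1 in that of luminal progenitors and in late pregnancy. The pairing changed no other call of a member. With the block on numbered arrays alone, 2 members passed in luminal progenitors against stem cells and 1, against 3, in mature luminal against stem cells. The 1 member in luminal progenitors against stem cells became 0 with quantile normalization, each probe set on its own, no intensity trend, the compared groups alone, without the day 10 and 16 luminal progenitor arrays, and in either split of stages. The 1 in luminal progenitors in pregnancy became 0 with each probe set on its own, no trend and the compared groups alone. Raising low values to the array median gave 1 against 0 in late pregnancy and in the mature luminal interaction, and the compared groups alone gave 1 in late pregnancy. Outside pregnancy 0 members, against 3, passed in mature luminal against stem cells.

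Leaving out 1 array, the members that passed ran from 0 to 1 in luminal progenitors against stem cells and in pregnant luminal progenitors, from 0 to 3 in mature luminal against stem cells (0 without the day 16 stem array, 1 without the day 16 mature luminal array), and from 1 to 2 in pregnancy over all cell types. The luminal progenitor minus stem difference of Fgfr1 (−0.83) turned to +0.39 with the block on numbered arrays, +0.585 within replicate 1, and +0.0967 both without the day 10 and 16 luminal progenitor arrays and outside pregnancy. The mature luminal minus stem difference of Fgfr2 turned to +0.683 outside pregnancy and ran from −1.74 to +0.11 with 1 array left out. Only the 15 member differences that passed with or without the block were followed through the alternatives, fits that left out 1 array included. Counted once per alternative, 271 were unchanged and 7 reversed. A further 12 passed only in the alternative and 35 no longer passed. Unchanged meant the same direction and side of the threshold. Within a replicate number no test was run, and there it meant a shift under the residual SD, which 9 differences exceeded. The cause of the changes was not tested.

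Genes that passed, with the range over the alternatives other than leaving out 1 array, were 673 (0 to 2220) in luminal progenitors and 1283 (265 to 3023) in mature luminal against stem cells, and 1096 (561 to 2404) in pregnancy. They were 346 (86 to 1112) in pregnant mature luminal, 24 (0 to 193) in pregnant luminal progenitor and 40 (0 to 339) in pregnant stem cells. They were 19 (1 to 153) between the luminal types, 27 (0 to 408) at 3 against 9 weeks, 4 (2 to 150) in late pregnancy, 2 (0 to 113) and 1 (0 to 64) in the interactions, 0 (0 to 15) between days 16 and 10, and 1 (0 to 6) in retired breeders. Quantile normalization moved the median of all genes at 3 against 9 weeks to −0.06, against 0.11 as deposited.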
